A study of Rattus norvegicus with 5 samples.

Results

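The 10 genes described here encode the core of the circadian clock and its nearest outputs: Arntl, Clock, Per1, Per2, Per3, Cry1, Cry2, Nr1d1, Dbp and Bhlhe41. They were chosen by name, and each matched 1 row of the deposited gene tables, which hold 25399 genes. The study profiled single cells of the retina of Sprague-Dawley (SD) rats early in diabetes by droplet-based RNA sequencing. It compared control rats with rats 2, 4 and 8 weeks into diabetes. Diabetic rats had received a single intraperitoneal injection of streptozotocin, a toxin of insulin-producing cells, at 45 mg/kg, had a blood glucose above 200 mg/dL, and were then kept on high-fat, high-sugar food. Control rats had received citrate buffer only, so the injection and the diet differed together between the groups. Counts of 4 of the 5 libraries were used, 1 from a control retina (control replicate 2) and 1 from each time of diabetes, and control replicate 1 was not analysed here. Each group is therefore 1 library, so no value below carries a p-value. The hour of the day at which the eyes were taken is not given in the sources used here, so time of day and diabetes cannot be told apart for any gene of a daily rhythm. The animals' age and sex are likewise not given in the sources used here.

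In the clock, the proteins of Arntl (also called Bmal1) and Clock pair and switch on genes that carry an E-box in their promoter, among them the Per and Cry genes. PER and CRY proteins then enter the nucleus and hold back the pair that made them, which closes a daily loop. A linked loop runs through Nr1d1 (REV-ERB alpha), which represses Arntl, while Dbp carries the rhythm to other genes through D-box elements and Bhlhe41 (DEC2) represses at E-boxes. The retina holds its own clock, known for timing melatonin synthesis, dopamine signalling and the shedding of photoreceptor outer segments.

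After filters, 6969 control cells and 11125, 7744 and 4357 cells at 2, 4 and 8 weeks were kept, with median totals between 902 and 1422 unique molecular identifiers (UMIs, counted transcript molecules) per cell. The analysed libraries shared between 13 and 70 barcodes by pair, of 7649 to 16128 barcodes in each. Cells fell into 19 clusters, and 7 populations with at least 50 cells in every library were compared: rods, cones, bipolar cells, amacrine cells, Müller glia, microglia and a cluster left unnamed, number 11, which was led by Calb2, Sncg and Ppp1r17. Cluster 11 may not have held like cells in every library. Levels are given in CPM (UMIs of a gene per 1000000 UMIs of the population). Adcyap1, a neuropeptide gene, read 0, 859, 1.44 and 109 CPM in control, 2-, 4- and 8-week cells of cluster 11. Whether the makeup of the cluster or expression in the same cells differed was not tested. Rods of the libraries lay in different clusters. Rod cluster 2 held 51.7% of control rods, cluster 0 held 60.5% of 2-week rods, cluster 1 held 63.2% of 4-week rods and cluster 3 held 51.0% of 8-week rods. The rods' median mitochondrial share was highest at 2 weeks, at 6.58%, against 2.90%, 1.84% and 3.15% in the control, 4-week and 8-week libraries.

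Promoters of 9 of the 10 genes were found in the RefSeq table (GRCr8), with 11 start sites in all. The 250 bases before each start were searched on both strands for the E-box CACGTG, its variant CACGTT, the D-box TTATGTAA or TTACGTAA, the REV-ERB and ROR element TAGGTCA and the cyclic AMP element TGACGTCA. Arntl and Bhlhe41 are shown because each was at least 2-fold from control at 2 times in 1 population, and Per2, Cry2 and Nr1d1 because a searched element was found. Ciart, a repressor of the CLOCK and BMAL1 pair that is not among the 10 genes, is shown for its values in rods, and was chosen after those were seen. Capitals mark the element, and each line runs 5′ to 3′ on the gene's strand.
Arntl, REV-ERB and ROR element, chr1:176766292-176766327, plus strand: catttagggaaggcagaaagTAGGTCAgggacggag
Bhlhe41, E-box, chr4:180569378-180569423, minus strand: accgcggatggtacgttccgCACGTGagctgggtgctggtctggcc
Nr1d1, E-box before the second start, chr10:84229620-84229665, minus strand: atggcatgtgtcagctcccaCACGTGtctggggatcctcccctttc
Nr1d1, variant on the other strand before the first start, chr10:84231961-84232006, minus strand: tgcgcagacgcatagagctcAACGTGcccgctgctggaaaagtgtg
Cry2, variant on the other strand, chr3:98860624-98860669, minus strand: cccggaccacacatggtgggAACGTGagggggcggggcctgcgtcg
Per2, D-box and variant, chr9:99497030-99497205, minus strand: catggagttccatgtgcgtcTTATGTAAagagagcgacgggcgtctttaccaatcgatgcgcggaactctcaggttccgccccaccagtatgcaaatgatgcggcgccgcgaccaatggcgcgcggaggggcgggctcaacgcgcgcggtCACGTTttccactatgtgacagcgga
Ciart, 3 E-boxes, chr2:186112247-186112359, minus strand: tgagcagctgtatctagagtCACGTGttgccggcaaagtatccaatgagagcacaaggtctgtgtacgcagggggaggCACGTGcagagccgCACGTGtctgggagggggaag

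The E-box stood 48 bases before the start of Bhlhe41 and 191 bases before the second start of Nr1d1, and the 3 E-boxes of Ciart stood 93, 35 and 21 bases before its start. Among all 33469 promoters of the table, 5.59% held CACGTG, 4.07% held CACGTT, 0.932% held either D-box and 2.26% held TAGGTCA. Of the 9 matched genes, 2 held CACGTG, 3 held CACGTT, 1 held a D-box and 1 held TAGGTCA, which stood 16 bases before the start of Arntl. The cyclic AMP element occurred in 1.59% of all promoters and in none of the 9. These are matches of letters in a short window and were not tested for binding.

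The clock genes were not spread evenly over the retina. Arntl and Clock, the activators, were highest in rods. Arntl read 182, 146, 208 and 183 CPM in rods of the control, 2-, 4- and 8-week libraries. In no other population did Arntl pass 92.3 CPM, so rods did not overlap the next in order, the cones, at 36.7 to 92.3 CPM. Below rods the ranges of neighbours overlapped down to microglia, at 7.21 to 21.2 CPM. Clock in rods read 72.7, 39.6, 43.3 and 59.7 CPM, and in amacrine cells, next in order by median, between 29.6 and 36.4 CPM. Bhlhe41 too was highest in rods by median, at 12.6 to 37.9 CPM, but overlapped microglia, next in order, at 9.26 to 22.7 CPM. At 4 weeks microglia stood above rods, at 22.7 against 16.7 CPM, on 7 microglial UMIs. The UMIs of Bhlhe41 in endothelial cells were 0, 1, 0 and 0.

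Dbp, Nr1d1 and Per3 had another order. Dbp, a transcription factor driven by the clock, was high in Müller glia (562 to 1084 CPM), amacrine cells (546 to 964 CPM), bipolar cells (631 to 881 CPM) and cluster 11 (541 to 745 CPM), with overlapping ranges. Cones lay below these, at 248 to 297 CPM, and rods lower again, at 39.2 to 90.7 CPM. Microglia, at 35.7 to 50.8 CPM, overlapped rods before any correction for free RNA, the transcripts shared between droplets. Free RNA, gauged by rod genes, made up an estimated 8.05%, 27.3%, 7.63% and 9.20% of microglial UMIs. With it taken out, microglia read 24.4, 0.0, 19.3 and 20.1 CPM of Dbp, below every rod value, and at most 0.76 CPM of Nr1d1 and 5.89 CPM of Arntl. Nr1d1 was likewise highest in bipolar cells, at 154 to 245 CPM, and Müller glia, at 167 to 221 CPM, against 27.7 to 53.3 CPM in rods and 6.49 to 10.6 CPM in microglia. Per3 was highest in bipolar cells, at 453 to 592 CPM, followed without overlap by Müller glia, at 368 to 444 CPM. In rods Per3 ranged from 99.5 to 291 CPM over the libraries.

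Cry1 was nearly level, with medians from 29.9 CPM in amacrine cells to 55.5 CPM in Müller glia, and lower only in endothelial cells, at 11.1 CPM, and microglia, at 6.85 CPM. Cry2 had medians of 88.1 CPM in rods and 86.6 CPM in bipolar cells, which overlapped, and of 18.7 CPM in cones. Per1 and Per2 were scarce. Their medians reached 7.87 CPM, for Per1 in rods, and 11.3 CPM, for Per2 in cluster 11. Levels here are compared between populations for 1 gene at a time, since the counts were not set per length.

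**Figure D1:**
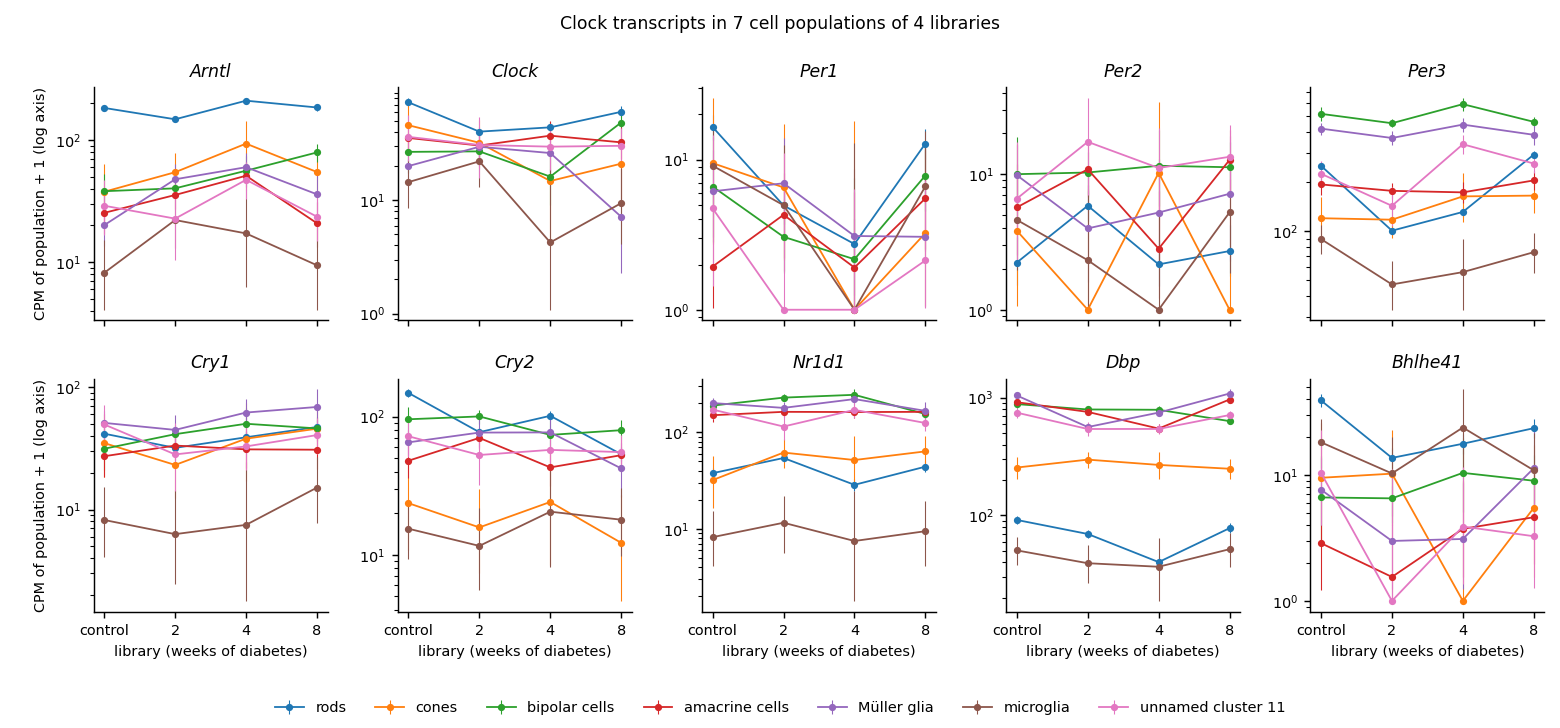
Each panel plots 1 clock gene as CPM of the population plus 1, on a log axis, against the library (control, or weeks of diabetes), with a line per cell population and bars for 95% Poisson intervals of the counts. Rods stand above all other populations for Arntl, at 146 to 208 CPM, and near the bottom for Dbp, at 39.2 to 90.7 CPM.

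Rods held 5 of the 10 differences of at least 2-fold found for the clock genes. Per3, Cry2, Dbp and Bhlhe41 were each at least 2-fold lower in rods of at least 1 diabetic library, while none of the 8 clock genes compared there was at least 2-fold higher. A gene was compared in a population only where its CPM averaged 20 or more across libraries and the pair of libraries held 30 UMIs or more. It was called where its log2 ratio to control was 1 or more in size with a 95% interval, for counting error only, that left out 0. In rods Per1 and Per2 missed the minimum.

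Per3, a repressor of the loop, read 249, 99.5, 129.7 and 291 CPM in rods of the control, 2-, 4- and 8-week libraries, from 1621, 882, 896 and 1530 UMIs. The 2- and 4-week libraries were low, and the 8-week library lay above control. The log2 ratio was -1.32 at 2 weeks (95% interval -1.44 to -1.20), -0.94 at 4 weeks (-1.06 to -0.82) and 0.23 at 8 weeks (0.13 to 0.33). Per1, the Per gene that light induces quickly, followed a like course at low counts. Its UMIs in rods were 101, 35, 12 and 62, or 15.5, 3.95, 1.74 and 11.8 CPM, giving log2 ratios of -1.96 (-2.57 to -1.41), -3.11 (-4.16 to -2.29) and -0.39 (-0.87 to 0.08). Per2 went the other way at 2 weeks, on few counts. It had 8, 43, 8 and 9 UMIs in rods, and its log2 ratio at 2 weeks was 1.91 (0.88 to 3.28).

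Cry2, a repressor of the CLOCK and BMAL1 pair, was lowest at 8 weeks. It read 147, 76.0, 100.2 and 52.3 CPM in rods, so every diabetic library lay below control. Its log2 ratio was -0.95 (-1.10 to -0.81), -0.55 (-0.70 to -0.41) and -1.49 (-1.69 to -1.30) at 2, 4 and 8 weeks. Its paralogue Cry1 read 40.7, 30.9, 37.9 and 46.2 CPM, with log2 ratios between -0.40 and 0.19.

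Dbp was low in rods at 4 weeks, with 90.7, 68.7, 39.2 and 77.0 CPM in the control, 2-, 4- and 8-week libraries. The log2 ratio was -1.21 at 4 weeks (-1.42 to -1.0), against -0.40 (-0.57 to -0.23) and -0.23 (-0.42 to -0.05) at 2 and 8 weeks. Bhlhe41 read 37.9, 12.6, 16.7 and 22.5 CPM, below control in all 3 diabetic libraries and least so at 8 weeks. Its log2 ratios were -1.58 (-1.92 to -1.26), -1.18 (-1.52 to -0.86) and -0.75 (-1.08 to -0.43). Clock, too, was below control in each, with log2 ratios of -0.88 (-1.08 to -0.68), -0.75 (-0.96 to -0.54) and -0.28 (-0.49 to -0.07). Nr1d1, the repressor of Arntl, was above control at 2 weeks, with 36.8, 53.3, 27.7 and 43.2 CPM and log2 ratios of 0.53 (0.31 to 0.77), -0.41 (-0.70 to -0.13) and 0.23 (-0.04 to 0.50). Arntl itself stayed within log2 ratios of -0.31 and 0.20.

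The counts of called clock genes in rods were 2 of 8 lower at 2 weeks (Per3 and Bhlhe41), 2 of 8 at 4 weeks (Dbp and Bhlhe41) and 1 of 8 at 8 weeks (Cry2). Among all genes compared in rods, 10.1% were called lower at 2 weeks, 3.81% at 4 weeks and 0.202% at 8 weeks, and 1.94%, 1.15% and 0.371% were called higher. The median log2 ratio of the 8 genes was -0.64, -0.65 and -0.11, beside -0.27, 0.03 and 0.00 for all genes compared. Of the 8, 7, 7 and 4 lay below control at the 3 times, where 68.5%, 47.5% and 49.2% of all genes did. Rods at 2 weeks depended on scaling: with edgeR's TMM factors every 2-week log2 ratio was 0.33 higher, which left Per3 at -0.99, uncalled, put Arntl at 0.02, and turned the split of all called genes from 600 lower and 115 higher to 224 and 349. At 4 weeks that split went from 226 and 68 to 183 and 106.

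**Figure D2:**
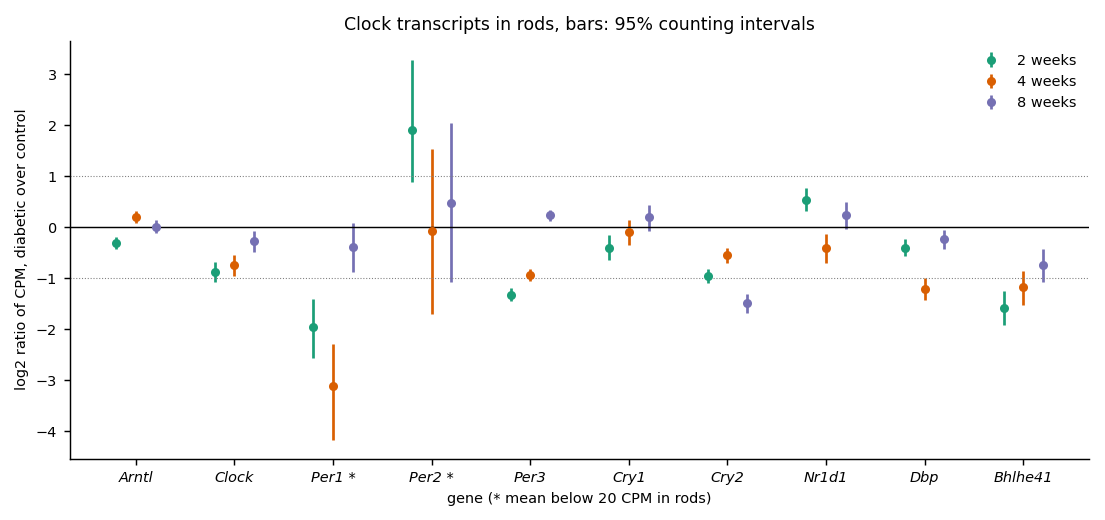
Points give the log2 ratio of CPM in rods, diabetic over control, for the 10 clock genes at 2, 4 and 8 weeks, with bars for 95% counting intervals, and dotted lines at 2-fold. Per3 and Bhlhe41 at 2 weeks, Dbp and Bhlhe41 at 4 weeks and Cry2 at 8 weeks pass the lower line, and the starred Per1 and Per2 were too scarce to be compared.

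Because rods of each library lay mostly in their own cluster, ratios were also taken inside each of the 5 rod clusters, with the same minimum for a call. How far the 5 clusters agreed differed by gene. Cry2 at 8 weeks was below control in 5 of 5 clusters, from -2.66 to -0.93, and called in 4. Of these calls, that of cluster 4 (-2.66) rested on 1 UMI at 8 weeks and that of cluster 0 on 6. Dbp at 4 weeks was below in 5 of 5, from -1.70 to -0.50, and called in 4. Per1 at 4 weeks was below in 5 of 5, from -5.58 to -2.17, under the minimum in each. Per3 at 2 weeks was below in 5 of 5 but by less, from -1.10 to -0.33, and was called in 1. Bhlhe41 at 2 weeks was below in 5 of 5, from -1.46 to -0.10, with 1 called of the 3 that met the minimum. At 4 weeks it was below in 4 of 5 and ran from -2.61 to 0.28, with both ends from clusters under the minimum. The 2 clusters that met it both lay below control, at -1.38, called, and -0.15. Cluster 4, with the lowest Per3 of the 5 in each library, held 26.4% of 2-week rods and 4.7% of control rods. The part of this difference in makeup in the Per3 and Bhlhe41 ratios was not tested beyond these values.

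**Figure D3:**
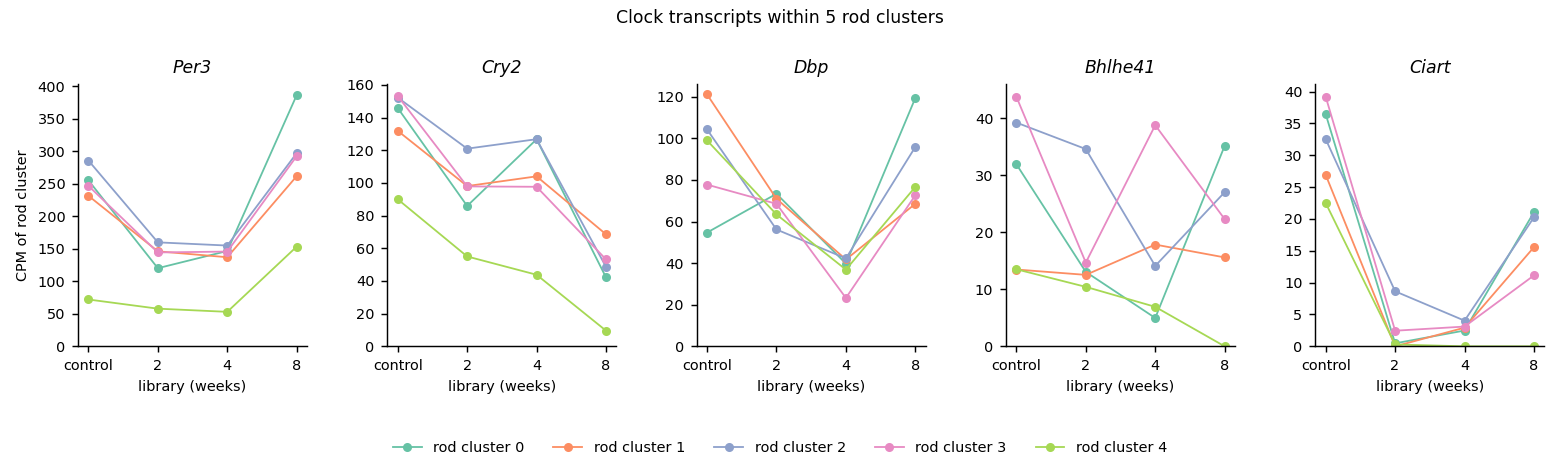
Each panel plots 1 gene as CPM of a rod cluster against the library (control, or weeks of diabetes), with a line for each of the 5 rod clusters. Cry2 is lowest at 8 weeks and Ciart lowest at 2 or 4 weeks in each cluster with counts, apart from Ciart in cluster 4, listed at 0 at 4 and 8 weeks, while the lines of Bhlhe41 cross.

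Arntl outside rods was the one clock gene called higher, in 4 populations. In Müller glia, which span the retina and support its neurons, the UMIs of Arntl numbered 26 in the control library and 47, 56 and 17 in the 2-, 4- and 8-week ones. These are 19.1, 46.7, 58.9 and 34.96 CPM, so every diabetic library lay above control. Its log2 ratio was 1.28 at 2 weeks (0.57 to 2.04), 1.61 at 4 weeks (0.93 to 2.35) and 0.88 at 8 weeks (-0.10 to 1.81). Among all genes compared in Müller glia, 2.63%, 1.97% and 1.85% were called higher at the 3 times, and 1 of 6, 1 of 6 and 0 of 6 clock genes. Free RNA made up an estimated 8.63%, 25.1%, 7.69% and 7.99% of Müller UMIs. With that share taken out at the gene levels of all kept cells of the library, Arntl read 11.9, 34.7, 52.0 and 28.9 CPM in Müller glia.

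At 4 weeks Arntl lay above control in 7 of 7 populations, with log2 ratios from 0.20 in rods to 1.61 in Müller glia and with 4 of the 7 intervals above 0. Of all genes with at least 10 UMIs over the pair in each population, 6.84% lay above control in all 7 at 4 weeks. Cones had 13 control and 20 diabetic UMIs, 36.7 and 92.3 CPM, and a log2 ratio of 1.31 (0.25 to 2.46), where 1.86% of genes were called higher. Amacrine cells had 26 and 55 UMIs, 24.4 and 50.0 CPM, and a log2 ratio of 1.02 (0.34 to 1.77), where 1.72% were. The cone value was 0.80 at its lowest under the other settings and the amacrine value 0.83. With free RNA taken out it was still 7 of 7 at 4 weeks. At 2 weeks Arntl lay above control in 5 of 7 populations, or 6 with TMM scaling and 3 with free RNA taken out. At 8 weeks it did in 5 of 7, or 3 with free RNA taken out. The share of all genes above control in at least 5 of 7 was not computed. In all 7, 7.57% lay above at 2 weeks and 2.44% at 8 weeks.

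Bipolar cells showed their highest Arntl at 8 weeks, with 33, 114, 47 and 137 UMIs, or 37.1, 39.2, 55.1 and 78.0 CPM, and a log2 ratio of 1.06 (0.51 to 1.67) at 8 weeks, where 7.95% of genes were called higher. Most of these UMIs lay in cells that also carried rod transcripts. A bipolar sub-cluster that also carried rod markers held 68 cells at 8 weeks and 8 in control, and gave 110 of the 137 UMIs. Without it, a choice made after seeing the data, the log2 ratio at 8 weeks was -0.18. With free RNA taken out it was -4.88, on an estimated free share of 74.3% that counts the rod transcripts of this sub-cluster as free.

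**Figure D4:**
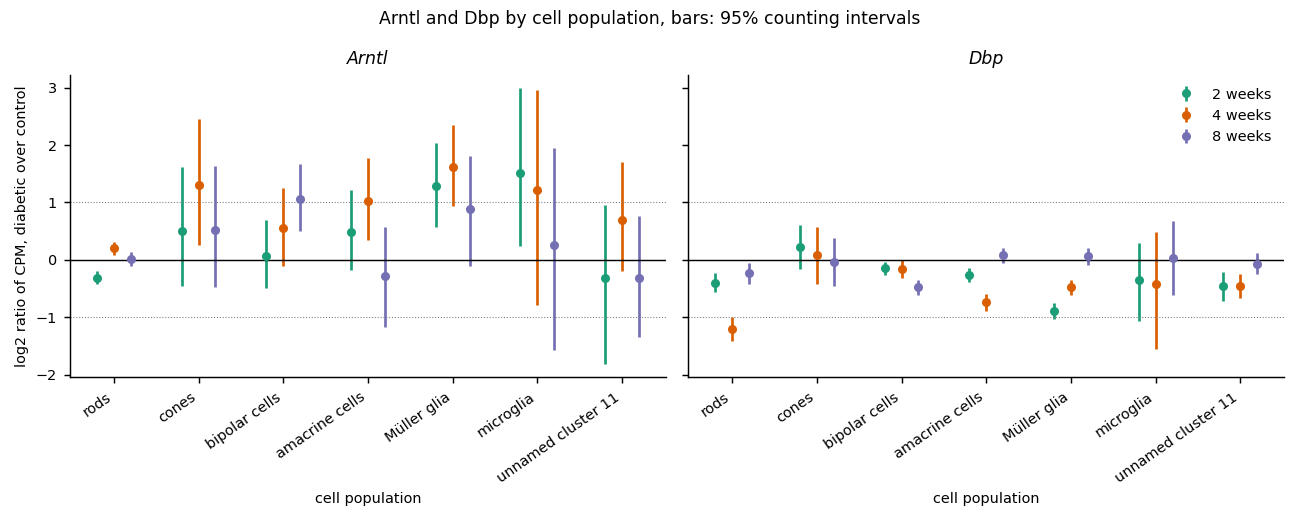
Points give the log2 ratio of CPM, diabetic over control, of Arntl (left) and Dbp (right) in 7 cell populations at 2, 4 and 8 weeks, with bars for 95% counting intervals and dotted lines at 2-fold. At 4 weeks Arntl lies above 0 in 7 of 7 populations and Dbp below 0 in 6 of 7, the exception being cones.

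Dbp lay below control in 6 of 7 populations at 2 weeks and in 6 of 7 at 4 weeks, with 5 intervals below 0 each time, and in 4 of 7 at 8 weeks. With free RNA taken out the counts were 5, 6 and 4 of 7. The share of all genes below control in at least 6 of 7 was not computed. Of genes with at least 10 UMIs over the pair in each population, 4.75% and 4.4% lay below in all 7 at 2 and 4 weeks. In Müller glia Dbp read 1043, 562, 746 and 1084 CPM, lowest at 2 weeks. The log2 ratios were -0.89 (-1.03 to -0.75), -0.48 (-0.62 to -0.35) and 0.06 (-0.09 to 0.20), the last turning to -0.04 with TMM scaling. In amacrine cells it read 914, 756, 546 and 964 CPM, lowest at 4 weeks, where the log2 ratio was -0.74 (-0.89 to -0.60). Bipolar cells read 881, 793, 788 and 631 CPM, with a log2 ratio of -0.48 at 8 weeks (-0.61 to -0.35), and this order did not hold without the sub-cluster with rod markers. Without it they read 895, 834, 822 and 982 CPM, highest at 8 weeks, and the log2 ratios were -0.10 (-0.22 to 0.02), -0.12 (-0.27 to 0.03) and 0.13 (-0.01 to 0.28). In cones, where the counts were 90, 161, 58 and 111 UMIs, each interval held 0. Outside rods no Dbp ratio reached 2-fold in the 7 populations. All these ratios share 1 control library.

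Per3 lay below control at 2 weeks in 7 of 7 populations, from -1.32 in rods to -0.04 in cones, with 4 intervals below 0. With TMM scaling the count was 6 of 7, cones moving above 0. With free RNA taken out it was 7 of 7, but some gaps were small. Control and 2-week levels were then 436.7 and 435.6 CPM for Müller glia and 543 and 540 CPM for bipolar cells. The pairs were 104 and 102 CPM for cones, 188 and 176 for amacrine cells and 222 and 139 for cluster 11. The bipolar interval, -0.34 to -0.03, held 0 without the sub-cluster with rod markers, at -0.15 (-0.3 to 0.01). Among all genes with at least 10 UMIs over the pair in each population, 4.75% lay below in all 7 at 2 weeks. Outside rods the differences were smaller. In Müller glia Per3 read 419, 368, 444 and 385 CPM and in amacrine cells 191, 175, 171 and 202 CPM. In microglia it read 88.3, 46.3, 55.2 and 73.3 CPM, with a log2 ratio of -0.92 at 2 weeks (-1.53 to -0.36), or -1.10 with TMM scaling, past 2-fold. With free RNA taken out microglial Per3 read 75.4, 1.67, 43.1 and 52.5 CPM. Cluster 11 was below control at 2 weeks, at -0.64 (-1.15 to -0.17), and above at 4 weeks, at 0.60 (0.27 to 0.93), beside its change in Adcyap1 given above, whose part was not tested.

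No clock gene was called lower outside rods, in 18 comparisons in which 0.592% to 7.22% of all genes were called lower, and Arntl alone was called higher. Nr1d1 in Müller glia read 201, 179, 221 and 167 CPM, and each interval held 0. Amacrine cells had 150.0, 163, 162 and 163 CPM of Nr1d1, with log2 ratios of 0.11 to 0.12. In bipolar cells it read 189, 229, 245 and 154 CPM, above control at 4 weeks (0.37, 0.07 to 0.68), with a log2 ratio of -0.29 at 8 weeks (-0.57 to -0.01) that turned to 0.06 (-0.25 to 0.38) without the sub-cluster with rod markers. Cry2, low in rods at 8 weeks, had log2 ratios there of 0.13 in amacrine cells (-0.44 to 0.71), -0.27 in bipolar cells (-0.67 to 0.14) and -0.61 in Müller glia (-1.42 to 0.08). Cry1 did not reach 2-fold in any of the 7 populations at any time, with log2 ratios from -0.79 to 0.95. Clock in bipolar cells read 25.9, 26.2, 15.2 and 47.9 CPM, of which 49 of the 84 UMIs at 8 weeks came from the sub-cluster with rod markers. Per1 and Per2 were under 20 CPM on average in all 7 populations, and in the 6 other than rods no interval of theirs left out 0. Bhlhe41 outside rods had 0 to 19 UMIs in each library and population, too few to compare.

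Of 20 other genes of the clock, 12 could be compared in rods. Called lower were 2 at 2 weeks, Nr1d2 and Nfil3, 1 at 4 weeks, Nr1d2, and 0 at 8 weeks, and none was called higher. Of all genes compared in rods, 10.1%, 3.81% and 0.202% were called lower at these times, and 1.94%, 1.15% and 0.371% higher. Of the 12, 9, 7 and 7 lay below control, where 68.5%, 47.5% and 49.2% of all genes did. The median log2 ratio of the 12 was -0.24, -0.08 and -0.10, close to that of all genes at 2 weeks. Nr1d2, the paralogue of Nr1d1, read 69.5, 33.7, 33.9 and 56.7 CPM in rods, with log2 ratios of -1.04 (-1.26 to -0.83) and -1.04 (-1.27 to -0.81) at 2 and 4 weeks. Nfil3, which competes with DBP at D-boxes, read 49.9, 24.3, 31.4 and 34.8 CPM, with -1.04 (-1.30 to -0.79) at 2 weeks. With TMM scaling these were -0.71 and -0.71 at 2 weeks and, for Nr1d2 at 4 weeks, -0.95, none of them called.

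Ciart, whose promoter holds the 3 E-boxes printed above, gave the widest ratio among clock genes in rods, although its mean of 4 libraries was under 20 CPM. It had 227, 6, 18 and 67 UMIs, or 34.8, 0.68, 2.61 and 12.8 CPM. The log2 ratios were -5.57 (-7.15 to -4.54), -3.70 (-4.52 to -3.05) and -1.44 (-1.87 to -1.05), so control was high and 2 weeks lowest. Inside the 5 rod clusters it was below control in 5 of 5 at each time, under the minimum in each and on 0 to 12 UMIs a cluster at 2 and 4 weeks. No such order held in Müller glia, where Ciart read 95.6, 115, 79.9 and 138 CPM, with log2 ratios of 0.27 (-0.10 to 0.64), -0.25 (-0.69 to 0.16) and 0.53 (0.08 to 0.96). In bipolar cells it had 11, 75, 17 and 33 UMIs, or 12.4, 25.8, 19.9 and 18.8 CPM.

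For these 20 genes bipolar cells are not reported here. In Müller glia 13 could be compared, and 1 was called: Rorb, an activator at ROR elements, read 891, 405, 763 and 600.4 CPM, with a log2 ratio of -1.13 at 2 weeks (-1.30 to -0.97), where 1.53% of genes were called lower. In cones Usp2, a deubiquitinase under clock control, was 1 of 4, at 1.12 (0.31 to 1.95) at 4 weeks, where 1.86% were called higher. Rora in cluster 11 had 28 and 3 UMIs in control and at 2 weeks, a log2 ratio of -2.48 (-5.04 to -0.98), where 4.45% were called lower. None of the 20 was called in amacrine cells, of 10 compared, or in microglia, of 5. By time and direction, 0.592% to 2.21% of all genes were called in amacrine cells and 1.55% to 7.22% in microglia.

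Genes listed as outputs of the retinal clock differed among themselves. Of 10 such genes 4 could be compared in rods. At 2 weeks and again at 4 weeks 1 was called higher, Asmt, and 1 lower, Opn4. Of all genes compared in rods, 1.94% and 1.15% were called higher at these times, and 10.1% and 3.81% lower. Asmt, the last enzyme of melatonin synthesis, read 23.5, 56.6, 51.7 and 41.3 CPM in rods, lowest in control, with log2 ratios of 1.27 (1.01 to 1.54), 1.14 (0.86 to 1.42) and 0.81 (0.51 to 1.12). Inside rod clusters the Asmt ratio ran from -0.09 to 1.21 at 2 weeks, with 1 of 5 called. Opn4 read 38.8, 17.6, 15.3 and 38.2 CPM among rods, with log2 ratios of -1.14 and -1.33 at 2 and 4 weeks, although melanopsin, its product, is known from ganglion cells. Its call at 2 weeks was lost with TMM scaling, at -0.81, and inside rod clusters it ran from -0.61 to 0.38 there, below control in 2 of 5 and called in none. At 4 weeks it was below in 5 of 5, from -1.74 to -0.02, with 1 called of the 2 that met the minimum. In cones Asmt was higher in level, at 232, 328, 397 and 358 CPM. Aanat, the rate-limiting enzyme of that pathway, was scarce, with 5, 3, 1 and 0 UMIs in rods and 1, 7, 0 and 7 in cones. Drd4, the rhythmic dopamine receptor of photoreceptors, read 310.5, 266, 253 and 269 CPM in rods, with log2 ratios of -0.22, -0.30 and -0.21, and with TMM scaling 0.11 at 2 weeks. In cluster 11, 3 of 3 compared genes of this list were called higher at 2 and at 8 weeks, and 0 of 1 at 4 weeks. There 4.63%, 3.09% and 3.43% of all genes were called higher at 2, 8 and 4 weeks. Adcyap1, given above, is on this list. Calls of the list in the remaining populations are not given here.

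Genes induced by light or cyclic AMP did not share 1 direction in rods. Egr1, an immediate early gene, read 23.2, 515, 13.6 and 13.7 CPM, and was 4.47 higher on the log2 scale at 2 weeks (4.24 to 4.72). Sik1, a kinase that limits the resetting of the clock by light, read 74.7, 12.4, 181 and 61.6 CPM, low at 2 weeks (-2.59, -2.90 to -2.29) and high at 4 weeks (1.27, 1.12 to 1.43). Of 8 such genes 6 could be compared in rods. Called were 1 lower and 1 higher at 2 weeks, where 10.1% and 1.94% of all genes were. At 4 weeks 1 was called higher, where 1.15% were. Of the 6, 4 lay below control at each time, where 68.5%, 47.5% and 49.2% of all genes did. The median log2 ratio of the 6 was -0.34, -0.42 and -0.46, beside -0.27, 0.03 and 0.0 for all genes compared. Outside rods, genes of this list were called in both directions and are not named here. In microglia at 4 weeks 7 of 8 were called lower and 0 higher, where 7.22% and 3.85% of all genes were. In cluster 11 at 4 weeks 6 of 7 were called higher and 0 lower, where 3.43% and 2.81% were. In Müller glia at 2 weeks 4 of 7 were called higher and 1 lower, where 2.63% and 1.53% were. Of 6 genes induced by glucocorticoids, 4 could be compared in rods. Tsc22d3 alone was called there, at -1.35 (-1.54 to -1.17) at 2 weeks, where 10.1% of all genes were called lower. No gene of the list of temperature and output genes was called in rods, of 5 compared, beside the rod shares given above. Cirbp of that list, an RNA-binding protein made in the cool phase of the daily temperature cycle, read 306, 496, 598 and 313 CPM in rods, with the same libraries high as in cones, at 124, 306, 249 and 105 CPM. In rods its log2 ratios of 0.70 and 0.97 at 2 and 4 weeks became 1.03 and 1.05 with TMM scaling, past 2-fold. It was called higher at 2 weeks in cones, bipolar cells, amacrine cells, Müller glia and microglia, with log2 ratios from 1.16 to 1.36. In these populations 2.21% to 6.24% of all genes were called higher at 2 weeks.

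Patterns over populations and libraries were compared by Pearson's r of log2(CPM + 10), centred within each population. These points share libraries and control, so r is a description. The genes most like Arntl, over 24 values of 6 populations, were Sart1 (r = 0.80), Akap17a (0.77) and Blcap (0.77). Clock was most like Kdm5b (0.88 over 16 values), Zfp518a (0.87) and Mast2 (0.85), and Cry1 most like Efemp2 (0.84 over 20 values), Rbm14 (0.83) and Tra2a (0.81). For Per3, over 28 values, the nearest were AC134224.1 (0.84), AC134224.3 (0.81) and Jun (0.76). Cry2, Nr1d1 and Dbp had weaker neighbours: Arl2 for Cry2 at 0.72, Hes6 for Nr1d1 at 0.67 and Rpl12 for Dbp at 0.68. No clock gene was among the 3 nearest of another, but not all could have been. Only genes that met the minimum in every population used for a gene were ranked beside it. This left out Per1, Per2 and Bhlhe41 throughout, and for Per3 and Dbp it left each other as the only clock gene ranked. No conclusion is drawn from this absence. Between populations, the clock genes' profile over libraries was most alike in amacrine cells and Müller glia (r = 0.51 over 24 values, against 0.41 for all genes) and least in bipolar and amacrine cells (-0.09 over 28 values, against 0.36). Rods and bipolar cells gave 0.11, against 0.38 for all genes.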

How the data were processed

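Per the labels' protocols, retinas were digested in trypsin and single cells captured in droplets. The deposited matrices hold raw UMI counts per gene and barcode. Per the submitters' processing notes, Cell Ranger 3.0.1 and genome build Rnor_6.0 were used. The 10 genes and all other lists and thresholds were chosen with earlier results of these data known.

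Barcodes were kept from 200 genes up and to a mitochondrial share of 20%. Scrublet scores (scanpy 1.11.5) marked doublets, of which 431, 1486, 666 and 205 were removed. Cells of the 4 libraries were clustered together (2000 variable genes, 30 components, Leiden resolution 1.0) and named from marker lists by a rule set after seeing the data: at least 3 markers detected in 10 or more percent of cells and a score margin of 0.3. A difference from the study's own cell types may come from these rebuilt names. Counts were summed per library and population and divided by the population's total. Log2 ratios had 0.5 added to each count, and intervals are exact conditional binomial ones. The method was tested on simulated data. With 1 library a group no test across libraries was made. Intervals cover counting error only. All 10 genes are named. Of other lists, the up to 4 called genes with the largest ratios are named in rods, plus Aanat, Asmt and Drd4 in photoreceptors. Outside rods, called genes are named for the other clock genes except in bipolar cells, and Cirbp is named. Further calls of these lists outside rods are not named, so absence of a gene there does not mean no call. Free RNA was estimated from rod genes outside rods and subtracted with the gene profile of all kept cells of the library, and TMM factors came from edgeR 4.0.16 in R 4.3.3. Promoters come from RefSeq (GRCr8), a newer build than that of the counts, so only names link them. Barcodes of control replicate 1 were read only for shared barcodes. A result for 1 gene of the other lists is not reported here.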

Additional observations from a re-analysis of the deposited data

How the results depend on the processing

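The 5 clock genes called lower in rods, summed over the 3 times, became 10 with a 1.5-fold threshold, 0 with a 3-fold threshold and 1 with a minimum mean of 100 CPM. They became 7 with a minimum of 5 CPM or none, since Per1 then entered at 2 and 4 weeks, and 4 with TMM scaling, which took out Per3. The 0 called higher in rods became 1, Per2, without a minimum. In Müller glia the 0 called lower became 1 with doublets kept and 1 at 1.5-fold, and the 2 called higher became 1 at 3-fold and 0 at 100 CPM. The rod values that were called ranged over 15 alternatives from -1.34 to -0.99 for Per3, -1.60 to -1.25 and -1.25 to -1.10 for Bhlhe41 at 2 and 4 weeks, -1.24 to -1.12 for Dbp and -1.54 to -1.46 for Cry2. Arntl in Müller glia ranged from 1.07 to 1.49 at 2 weeks and 1.36 to 2.09 at 4 weeks. Arntl in bipolar cells at 8 weeks turned to -4.88 with free RNA subtracted and -0.18 without the sub-cluster with rod markers. Arntl in amacrine cells kept its call under 8 of 15 alternatives and in cones under 10 of 14. The cause of these shifts was not tested. No paired analysis was possible because each group had 1 library, and no replicate could be left out. Depth limits Per1, Per2 and Bhlhe41 outside rods, and all genes in cones and microglia at 4 weeks, with 53 and 76 cells.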

Other observations

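Endothelial cells, of which there were 92, 426, 32 and 52, fell under 50 at 4 weeks and were left out of the comparisons. Dbp there had 131, 93, 29 and 79 UMIs, or 175, 37.1, 83.1 and 231 CPM, with log2 ratios to control of -2.23 at 2 weeks (-2.63 to -1.84), -1.05 at 4 weeks (-1.71 to -0.48) and 0.41 at 8 weeks (-0.02 to 0.82). The 2-week value is lower than that of Dbp in any of the 7 populations compared, and the 2-week library held the most endothelial cells. Nr1d1 in endothelial cells read 96.0, 49.5, 158 and 146 CPM, with -0.96 at 2 weeks (-1.39 to -0.52), 0.72 at 4 weeks (0.18 to 1.24) and 0.61 at 8 weeks (0.06 to 1.15). For Nr1d1, 1 cell gave 16 of 55 UMIs at 4 weeks and 1 cell 16 of 50 at 8 weeks. For Dbp, 1 cell gave 12 of 29 UMIs at 4 weeks. The intervals take no account of such single cells. Per3 read 109, 101, 138 and 152 CPM, and each interval held 0.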
